A study of Mus musculus with 16 samples.

Results

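The 10 genes described here encode receptors by which macrophages recognise modified lipids, microbial sugars, dead cells and bacterial wall components. They comprise the scavenger receptor genes Marco, Msr1 and Cd36, the mannose receptor gene Mrc1, the C-type lectin genes Clec4e, Clec4d and Clec7a, the lipopolysaccharide co-receptor gene Cd14, and the TREM-family genes Treml4 and Trem2. All 10 were among the 18820 genes of the array, each by 1 probe set that names a single gene. They were taken by name from a list chosen by the log2 intensities of these same arrays, with earlier results known. Their counts, ranks and adjusted p values therefore describe the list and are no independent test of it.

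The cells were RAW264.7, a macrophage-like line from a tumour of a mouse, cultured for 24 h. A group of arrays came from cells given lipopolysaccharide (LPS, from the outer membrane of bacteria) at 1 µg/ml together with DHA5HT (docosahexaenoyl serotonin, in which the omega-3 fatty acid DHA is joined to serotonin) at 1 µM, written LPS+DHA5HT. The other groups received LPS at 1 µg/ml, DHA5HT at 1 µM, or vehicle as control, and each group holds 4 arrays. The sample labels name the vehicle, ethanol at 0.1% by volume, for the control alone, and the protocol gives a vehicle to cells with LPS too. As 1 tumour-derived line, RAW264.7 limits how far these values speak for macrophages of tissues.

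Scavenger receptors bind oxidised lipoproteins, bacteria and debris and carry them into the cell. MARCO and the product of Msr1 are class A members with a collagen-like stalk, CD36 is a class B member that also takes up fatty acids, and the mannose receptor is an endocytic lectin used as a marker of alternatively activated macrophages. Clec4e (Mincle) recognises glycolipids of mycobacteria and ligands from dead cells, Clec4d is its partner, and Clec7a (Dectin-1) recognises fungal beta-glucan. These lectins signal through the kinase Syk and the adaptor Card9, and Clec4e does so with the chain encoded by Fcer1g. Trem2 pairs with the adaptor encoded by Tyrobp and binds lipids and lipoproteins, mouse Treml4 binds dead cells, and CD14 hands LPS to the complex of Tlr4 and Ly96.

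All values are log2 intensities after RMA, given with the SD of 4 arrays or with the SE of a change. A gene was said to rise or fall where limma's test, adjusted by Benjamini-Hochberg over the 18820 genes, gave p under 0.05. Correlations between arrays of a group lay between 0.996 and 0.998. The first principal component, with 70.6% of the variance, separated arrays with LPS from arrays without it. On the second, with 4.72%, the score of LPS+DHA5HT array 4 was −22.4, outside the span of −9.36 to 10.0 of the remaining arrays. LPS+DHA5HT array 1 carries a treatment label that names DHA5HT alone and a title that names both agents, and the title was followed. Its score on the first component was 22.7, on the side of the arrays with LPS. The DHA5HT arrays scored −33.6 to −31.0. Of 14 macrophage markers 13 were measured, and all 13 lay above the level of absent genes in every group, from 6.93 to 12.7. That level, 3.57, is the median of 19 lymphocyte and epithelial markers, whose own group means spanned 2.70 to 4.76. With LPS 7 of the 13 macrophage markers rose and 4 fell, Adgre1 by the most (3.94), and in LPS+DHA5HT against LPS limma called 0 of them and 2 had an unadjusted p under 0.05. In bulk RNA, fewer cells of a type and less RNA per cell cannot be told apart. Nothing in the labels tells whether a group's arrays derive from separate dishes of cells, so each p refers to the scatter among the arrays at hand, which may be technical, and the number of arrays limits the precision.

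The promoters of Marco, Clec4e, Clec7a, Treml4 and Trem2, members whose values lay above the level of absent markers and which passed in both comparisons for LPS, are shown because the same short letters recur in them. Clec4d, which meets the same conditions, and Mrc1 and Cd36, which do not, also have a window and are not printed. For Treml4 the pass in LPS+DHA5HT against DHA5HT rests in part on the arrays by which it was listed. RefSeq (GRCm38.p6) gave a window of 300 bases, ending 50 bases into the transcript, for 8 of the 10 members, with 2 windows for Clec7a, of which 1 is printed. Both strands were searched for the PU.1 box GAGGAA, the AP-1-like pattern TGANTCA, the core of the antioxidant response element TGACNNNGC and the kB consensus. The letter N stands for any base. Matches of different motifs did not overlap in the members. PU.1, encoded by Spi1, is a transcription factor that macrophages need for their development. Capitals mark the matches, and TTCCTC is the PU.1 box read on the opposite strand.
Marco, chr1:120504975-120505274, minus strand: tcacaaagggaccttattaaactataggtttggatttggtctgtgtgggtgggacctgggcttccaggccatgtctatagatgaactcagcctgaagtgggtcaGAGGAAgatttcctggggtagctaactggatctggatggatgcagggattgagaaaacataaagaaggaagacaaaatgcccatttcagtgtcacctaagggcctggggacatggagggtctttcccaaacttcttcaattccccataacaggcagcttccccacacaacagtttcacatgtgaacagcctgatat
Clec4e, chr6:123289822-123290121, minus strand: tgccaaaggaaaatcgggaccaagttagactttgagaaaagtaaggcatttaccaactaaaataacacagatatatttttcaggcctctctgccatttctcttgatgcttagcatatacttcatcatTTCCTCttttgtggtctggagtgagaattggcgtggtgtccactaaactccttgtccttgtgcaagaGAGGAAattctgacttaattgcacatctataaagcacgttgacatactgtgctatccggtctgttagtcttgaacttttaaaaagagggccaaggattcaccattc
Clec7a, chr6:129472730-129473029, minus strand: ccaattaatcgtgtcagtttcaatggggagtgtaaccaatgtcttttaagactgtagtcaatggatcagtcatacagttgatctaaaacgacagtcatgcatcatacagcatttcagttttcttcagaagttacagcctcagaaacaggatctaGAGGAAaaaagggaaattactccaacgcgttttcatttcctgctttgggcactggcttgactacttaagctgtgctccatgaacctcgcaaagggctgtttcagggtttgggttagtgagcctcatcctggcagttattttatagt
Treml4, chr17:48264045-48264344, plus strand: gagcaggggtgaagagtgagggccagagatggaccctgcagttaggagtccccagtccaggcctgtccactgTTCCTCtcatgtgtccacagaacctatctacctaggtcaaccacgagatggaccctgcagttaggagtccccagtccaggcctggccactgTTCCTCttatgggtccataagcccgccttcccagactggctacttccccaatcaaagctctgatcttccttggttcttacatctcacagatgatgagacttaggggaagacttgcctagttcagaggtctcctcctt
Trem2, chr17:48346151-48346450, plus strand: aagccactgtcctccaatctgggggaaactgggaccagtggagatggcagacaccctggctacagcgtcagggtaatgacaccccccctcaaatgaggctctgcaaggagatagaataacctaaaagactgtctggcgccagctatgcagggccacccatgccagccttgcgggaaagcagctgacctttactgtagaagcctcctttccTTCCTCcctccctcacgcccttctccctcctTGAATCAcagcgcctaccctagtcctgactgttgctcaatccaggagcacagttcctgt
The PU.1 box occurred in 7 of the 8 members with a window, every one but Cd36, against 28.3% of the 32851 windows in the table. Counted by gene among those with a window, it occurred in 31.3% of all genes and in 7 of 10 macrophage markers. Among related genes it occurred in 5 of 9 other TREM and CD300 receptors and in 9 of 24 other C-type lectins. It also occurred in 5 of 12 other scavenger receptors and in 4 of 12 adaptors and signalling genes. Among markers of other cells it occurred in 4 of 8 lymphocyte, 2 of 4 osteoclast, 2 of 7 epithelial and 1 of 7 dendritic cell markers. In Treml4 its 2 copies lie 178 and 87 bases before the start. A run of 40 bases that begins 225 bases before the start is repeated exactly at a spacing of 91 bases. The boxes lie just downstream of that run and of its repeat, not within them. The AP-1 site was found in Trem2, 9 bases before the start, and in 7.81% of all windows. The antioxidant core, present in 12.4% of windows, and the kB consensus, present in 8.46%, were found in 0 of the 8 members. Spi1 itself had means of 11.66 in LPS+DHA5HT arrays, 11.57 in LPS arrays, 11.63 in DHA5HT arrays and 11.57 in control arrays. Its changes had adjusted p values from 0.467 to 0.952 in the 5 comparisons made.

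LPS against control asks how these receptors responded to the bacterial stimulus. Marco rose most among them and Clec7a fell most, while Msr1 had nearly the same values in all 4 groups. Of the 10 members 6 rose (Marco, Clec4e, Cd36, Cd14, Treml4 and Clec4d) and 3 fell (Clec7a, Trem2 and Mrc1), where 28.4% of all genes passed, 12.6% upward and 15.8% downward. With only genes brighter than the median gene tested, the share was 55.9%. The members' median change was 0.47, against 0.0041 over all genes. In 8 members the 4 LPS and the 4 control arrays did not overlap, as in 29.8% of all genes.

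**Figure D1:**
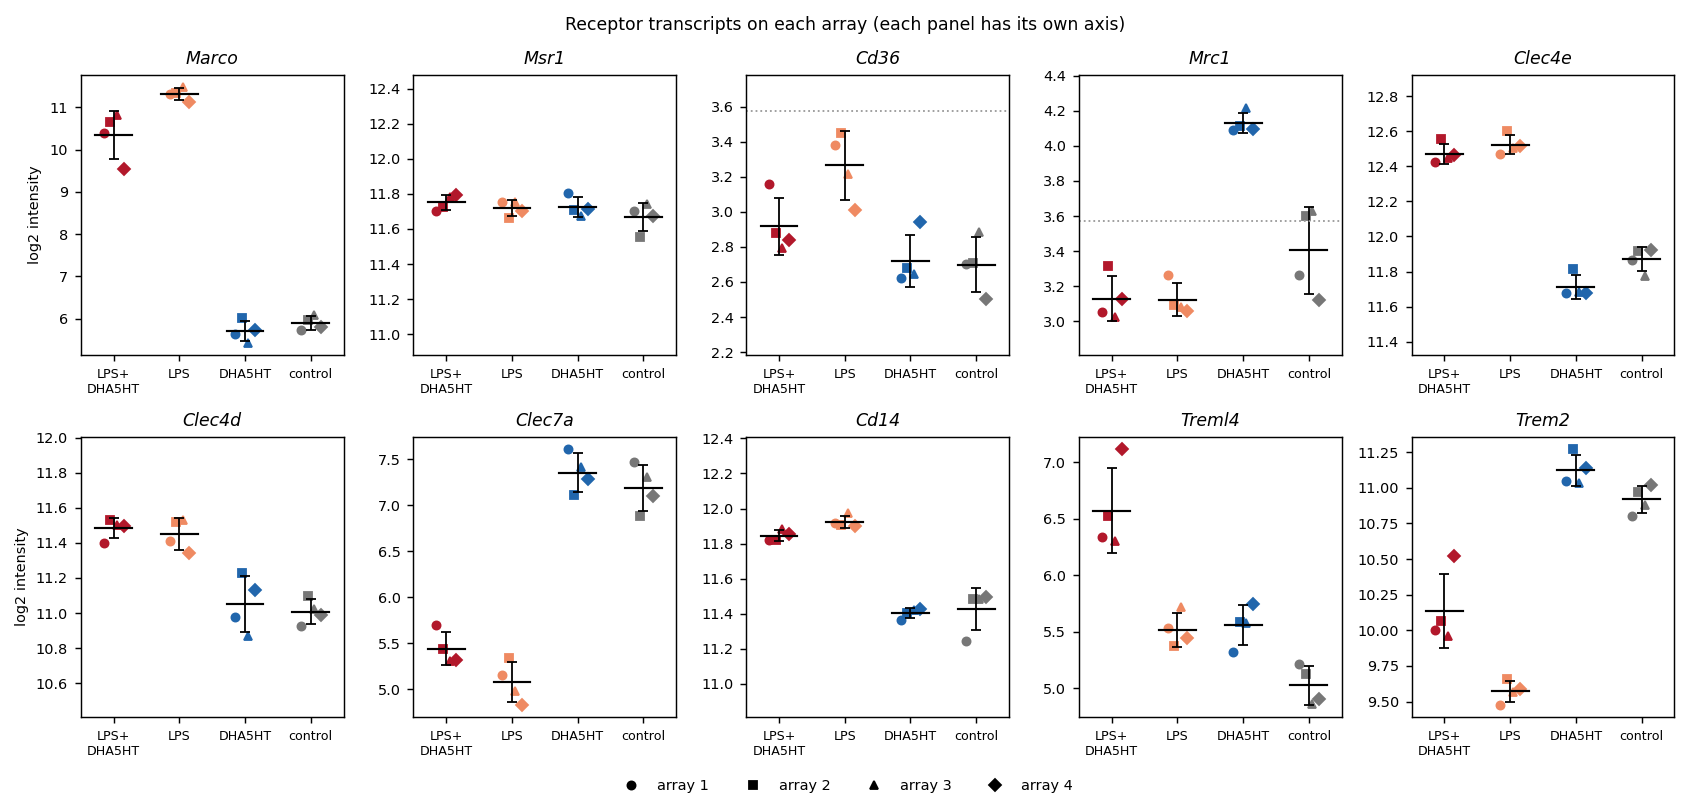
Log2 intensity of each receptor transcript on every array, with the mean (line) and SD (bars) of 4 arrays per group and array numbers as symbols. The dotted line, in the panels whose axis reaches it, marks 3.57, the level of absent markers. Marco lies between 9.54 and 11.48 on the 8 arrays with LPS and between 5.44 and 6.09 on the other 8, and Cd36 lies under the dotted line on all 16.

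Marco had log2 intensities of 11.32, 11.34, 11.48 and 11.13 on the LPS arrays, against 5.74, 5.97, 6.09 and 5.80 on the control arrays. The LPS arrays lay far above every control array. The change was 5.42 (SE 0.20, 42.7-fold, limma adjusted p = 1.4e-12), the 10th largest increase of the 18820 genes. The other class A gene, Msr1, averaged 11.72 ± 0.04 in LPS arrays and 11.67 ± 0.08 in control arrays. Its ranges overlapped, and its change of 0.05 had a 95% confidence interval from −0.07 to 0.17.

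Clec7a had log2 intensities of 5.15, 5.34, 4.98 and 4.83 on the LPS arrays, against 7.46, 6.88, 7.30 and 7.09 on the control arrays. No LPS array reached the lowest control array. The fall of −2.11 (SE 0.14, adjusted p = 1.9e-09) left Clec7a 4.31-fold lower, the 14th largest decrease of all genes. Trem2 also fell, to 9.48, 9.66, 9.56 and 9.59 on the LPS arrays, against 10.80, 10.97, 10.88 and 11.02 on the control arrays. All 4 LPS arrays were lower by more than 1 log2 unit, which amounted to −1.35 (SE 0.10) or 2.54-fold lower, at an adjusted p of 1.3e-08.

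The partner lectins rose modestly from bright levels. Clec4e had 12.47, 12.60, 12.50 and 12.52 on the LPS arrays, against 11.87, 11.91, 11.78 and 11.93 on the control arrays. The groups stood clear of each other, and the change was 0.65 (SE 0.06, 1.57-fold, adjusted p = 8.61e-08). Clec4d ranged from 11.34 to 11.53 in LPS arrays and from 10.93 to 11.10 in control arrays, a rise of 0.44 (SE 0.07, adjusted p = 0.000154). Cd14 had 11.92, 11.91, 11.97 and 11.90 on the LPS arrays, against 11.25, 11.48, 11.48 and 11.50 on the control arrays. Every LPS array of Cd14 was above every control array, and the rise was 0.50 (SE 0.06, 1.41-fold, adjusted p = 3.22e-06). The highest value on any array was 13.68, and whether changes are compressed at such levels was not tested.

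Treml4 had 5.54, 5.37, 5.72 and 5.44 on the LPS arrays, against 5.21, 5.13, 4.86 and 4.91 on the control arrays. The arrays did not overlap, and the rise was 0.49 (SE 0.15, adjusted p = 0.0173). It no longer passed when LPS array 3, control array 3 or control array 4 was left out (0.42 to 0.45, adjusted p 0.0513 to 0.0607). Cd36 ranged from 3.01 to 3.45 in LPS arrays and from 2.50 to 2.88 in control arrays. Although it passed (0.57, adjusted p = 0.000526), all its arrays lay below 3.57, so the change is between values not above the level of absent markers. Mrc1 averaged 3.12 ± 0.09 in LPS arrays and 3.40 ± 0.25 in control arrays, again both below 3.57. It passed (−0.28, adjusted p = 0.0438), but not when control array 2, control array 3 or LPS array 2, 3 or 4 was left out (−0.27 to −0.21, adjusted p 0.0909 to 0.158), after repeated quantile normalization (adjusted p = 0.0511), after centring (adjusted p = 0.0986) and with the compared arrays alone (adjusted p = 0.0921).

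LPS+DHA5HT against DHA5HT measures the LPS response on 8 other arrays, with DHA5HT in the medium of both groups. Of the 10 members 5 rose and 3 fell, where 28.1% of all genes passed, and 56.0% with only genes brighter than the median gene tested. Marco (4.65), Clec4e (0.76), Clec4d (0.43) and Cd14 (0.44) rose, with adjusted p values from 9.25e-12 to 0.000208. Treml4 rose as well (1.01), but on the LPS+DHA5HT arrays by which it was listed, so its rise is descriptive only. Clec7a (−1.91), Trem2 (−0.98) and Mrc1 fell, with adjusted p values from 8.24e-09 to 7.05e-07. No LPS+DHA5HT array of Mrc1 reached 3.57, and its DHA5HT mean of 4.13 lay within the span of the absent markers. No fold is therefore given for Mrc1. In these 8 members the groups did not overlap, as in 28.5% of all genes. Cd36 did not pass (0.19, adjusted p = 0.217) and neither did Msr1 (0.03, adjusted p = 0.802).

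**Figure D2:**
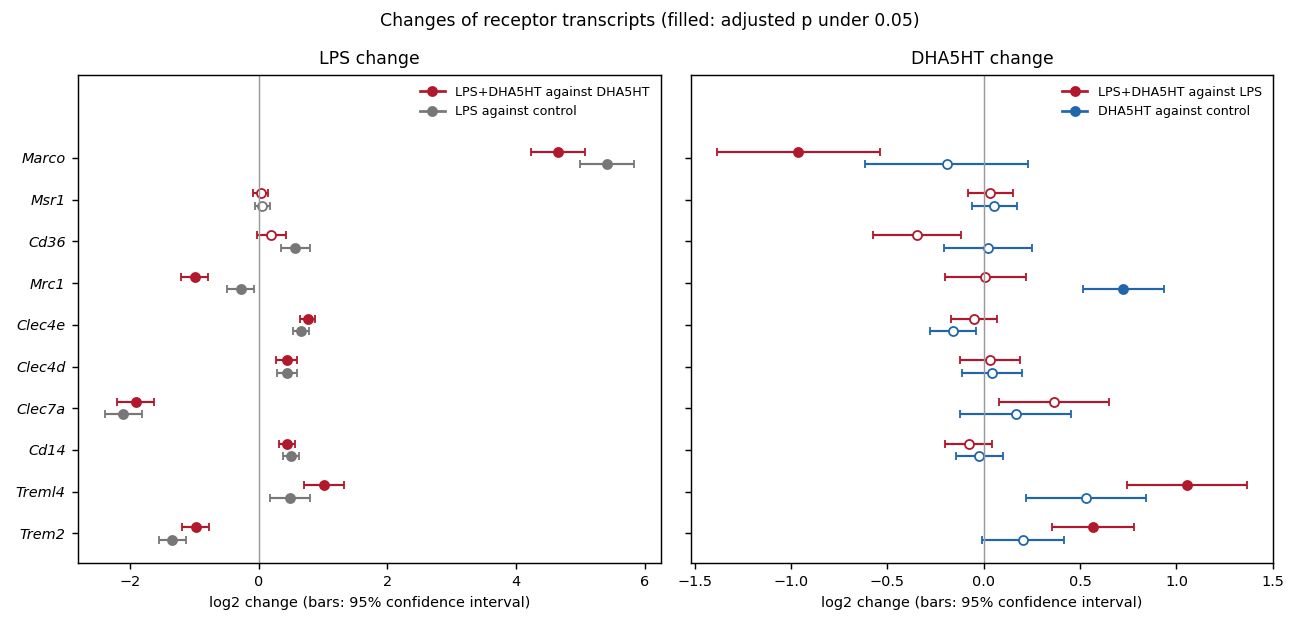
Log2 changes of the receptor transcripts with 95% confidence intervals, for LPS (left, with and without DHA5HT in both groups) and for DHA5HT (right, with and without LPS), filled where adjusted p was under 0.05. The axes of the panels differ in scale. Marco changed by 5.42 and 4.65 with LPS, and with DHA5HT the filled points are Marco, Treml4 and Trem2 in LPS cells and Mrc1 in cells without LPS. Treml4 was listed with its DHA5HT change in LPS cells known, so that point is descriptive only. Its point for LPS+DHA5HT against DHA5HT uses the same LPS+DHA5HT arrays and is descriptive too.

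The study's design text describes the addition of DHA5HT to LPS. This comparison shares its LPS arrays with that of LPS against control. Treml4 and Trem2 were higher and Marco was lower in cells given LPS and DHA5HT than in cells given LPS. These 3 of 10 members passed, where 1.79% of all genes did, 0.818% upward and 0.972% downward (3.44% with the array number as a block). With only genes brighter than the median gene tested, the share was 5.92%. All members were listed with earlier results of these arrays known, and the choice of Treml4 was itself informed by this comparison. The members' median change was 0.02, against 0.0020 over all genes. In 4 members, the same 3 and Cd14, the groups did not overlap, as in 7.89% of all genes, 3.97% higher and 3.91% lower.

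Marco had 10.40, 10.65, 10.83 and 9.54 on the LPS+DHA5HT arrays, against 11.32, 11.34, 11.48 and 11.13 on the LPS arrays. Each LPS+DHA5HT array lay below the lowest LPS array, and array 4 was the lowest. Marco fell by 0.96 on the log2 scale (SE 0.20, 1.95-fold lower, limma adjusted p = 0.0214). Without LPS+DHA5HT array 4 the change was −0.69 (adjusted p = 0.0193), and without array 1, whose labels conflict, it was −0.98 (adjusted p = 0.0484). The call was lost without LPS array 2 (−0.95, adjusted p = 0.0627) or LPS array 3 (−0.91, adjusted p = 0.0576), and with the compared arrays alone (adjusted p = 0.108). Levels in LPS+DHA5HT arrays were still above those of control arrays, which reached 6.09 at most.

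Trem2 had 10.01, 10.07, 9.96 and 10.52 on the LPS+DHA5HT arrays, against 9.48, 9.66, 9.56 and 9.59 on the LPS arrays. All LPS+DHA5HT arrays were higher than all LPS arrays and lower than all control arrays, so the group with both agents stood between them. The rise was 0.57 (SE 0.10, 1.48-fold, adjusted p = 0.00823). It was 0.44 without LPS+DHA5HT array 4 (adjusted p = 0.00891) and 0.61 without array 1 (adjusted p = 0.0125). With the compared arrays alone the adjusted p was 0.0700.

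Treml4 had 6.34, 6.52, 6.30 and 7.11 on the LPS+DHA5HT arrays, against 5.54, 5.37, 5.72 and 5.44 on the LPS arrays. The lowest array with DHA5HT was above the highest without it. The change was 1.05 (SE 0.15, 2.07-fold), and it was 0.87 without LPS+DHA5HT array 4 and 1.13 without array 1. As this change was known when the gene was listed, it is descriptive only, and no p or rank is given for it.

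The remaining members did not pass. Clec7a averaged 5.44 ± 0.18 in LPS+DHA5HT arrays and 5.08 ± 0.22 in LPS arrays, a difference of 0.36 with a 95% confidence interval from 0.08 to 0.65 and an adjusted p of 0.219. Cd14 had 11.82, 11.82, 11.88 and 11.86 on the LPS+DHA5HT arrays, against 11.92, 11.91, 11.97 and 11.90 on the LPS arrays. These did not overlap, yet the difference was small (−0.08, interval −0.20 to 0.04, adjusted p = 0.613). The differences of Clec4e (−0.05, interval −0.17 to 0.07), Clec4d (0.03, interval −0.13 to 0.19) and Msr1 (0.03, interval −0.08 to 0.15) were within the spread of the arrays. For Mrc1 (0.01, adjusted p = 0.990) and Cd36 (−0.35, adjusted p = 0.125) the arrays of both groups lay below 3.57.

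Arrays of the same number deviated together in this comparison, so differences within a number are given as well. Marco differed by −0.92, −0.70, −0.65 and −1.59 in numbers 1 to 4. Treml4 differed by 0.80, 1.15, 0.59 and 1.67, and Trem2 by 0.53, 0.41, 0.39 and 0.93. All 4 numbers went the same way in each of these genes, and number 4 gave the largest difference in all 3. Clec4e differed by −0.05, −0.05, −0.06 and −0.05, which is the same sign and nearly the same size in each. Clec7a was higher in all 4 numbers, by 0.10 to 0.54. Cd14 (−0.10 to −0.04) and Cd36 (−0.57 to −0.17, all below 3.57) were lower in all 4. Clec4d, Mrc1 and Msr1 differed in sign between numbers.

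**Figure D3:**
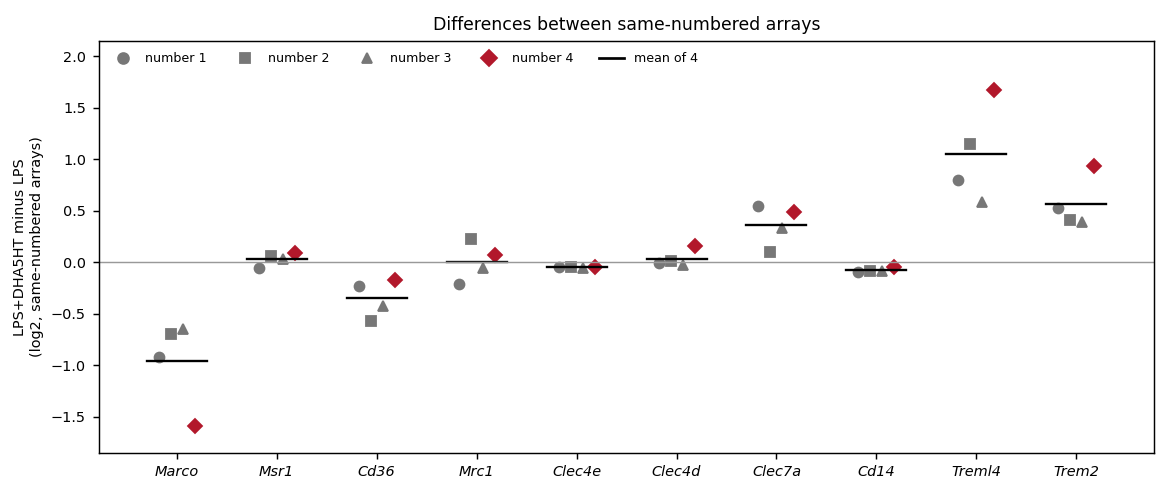
LPS+DHA5HT minus LPS (log2) between arrays of the same number, with the mean of the 4 differences as a line and number 4 in red. Number 4 is farthest from 0 in Marco (−1.59), Treml4 (1.67) and Trem2 (0.93).

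DHA5HT against control asks what the conjugate did without LPS. Only Mrc1 passed among the 10 members, where 0.6% of all genes did, 0.122% upward and 0.478% downward (0.951% with the array number as a block). Mrc1 had 4.09, 4.11, 4.21 and 4.10 on the DHA5HT arrays, against 3.26, 3.60, 3.63 and 3.12 on the control arrays. The DHA5HT arrays were close together and clear of the control arrays. The rise passed (adjusted p = 0.000719), but the control mean lay below 3.57, so the fitted difference of 0.72 (SE 0.10) is not a measured fold. The DHA5HT mean of 4.13 exceeded that level by 0.55 but lay within the span of the absent markers. No bound on the fold is therefore given. The call held when each of the 8 arrays was left out in turn (0.63 to 0.80, adjusted p 0.000409 to 0.00447).

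Treml4 had 5.32, 5.59, 5.58 and 5.75 on the DHA5HT arrays, against 5.21, 5.13, 4.86 and 4.91 on the control arrays. The arrays did not overlap, but the difference did not pass (0.53, interval 0.22 to 0.84, adjusted p = 0.168). Trem2 likewise had every DHA5HT array above every control array, from 11.03 to 11.27 against 10.80 to 11.02, with a difference of 0.20 (interval −0.01 to 0.42, adjusted p = 0.533). Non-overlap in these genes and Mrc1 made 3 of 10 members, all higher, as in 5.89% of all genes, 3.03% higher and 2.85% lower. Clec4e differed by −0.16 (interval −0.28 to −0.04, adjusted p = 0.333) and Marco by −0.19 (interval −0.62 to 0.23, adjusted p = 0.814). Msr1, Clec4d, Clec7a, Cd14 and Cd36 had adjusted p values from 0.757 to 0.974. Same-numbered arrays deviated together in these groups too. Within numbers 1 to 4 Treml4 differed by 0.10, 0.46, 0.72 and 0.84, and Trem2 by 0.24, 0.30, 0.15 and 0.12. Clec7a (0.11 to 0.22) and Mrc1 (0.51 to 0.97) were also higher and Clec4e (−0.25 to −0.09) lower in all 4 numbers, while the other 5 members differed in sign.

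Whether the DHA5HT effect differed between cells with and without LPS was tested as the interaction. It passed for Mrc1 alone among the 10 members (−0.72, SE 0.14, adjusted p = 0.0349), where 0.329% of all genes passed. Its DHA5HT change was 0.01 with LPS, where both groups lay below 3.57, against 0.72 without LPS. Leaving out 1 of the 16 arrays kept that call in 3 cases and lost it in 13 (−0.79 to −0.62, adjusted p 0.0168 to 0.0885). For Treml4 the DHA5HT change was 1.05 with LPS and 0.53 without, and the difference of 0.52 (interval 0.08 to 0.96) had an adjusted p of 0.551. That difference rests in part on the arrays by which the gene was listed. For Trem2 the changes were 0.57 and 0.20, a difference of 0.36 (interval 0.06 to 0.66, adjusted p = 0.540). For Marco they were −0.96 and −0.19, a difference of −0.77 (interval −1.37 to −0.17, adjusted p = 0.499). A larger DHA5HT effect in LPS cells was thus neither shown nor excluded for Treml4, Trem2 or Marco. On simulated data the interaction recovered only 54% of changes of 0.5 (log2).

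In order of group means, Marco ran from LPS through LPS+DHA5HT to control and DHA5HT, and only the last 2 overlapped. Trem2 ran from DHA5HT through control and LPS+DHA5HT to LPS with no overlap between neighbours. Treml4 was highest in LPS+DHA5HT, then DHA5HT and LPS, which overlapped, and lowest in control. Clec7a was highest in DHA5HT and control, which overlapped, and lower in LPS+DHA5HT and LPS, which overlapped too. For Msr1 and Cd36 all neighbours in the order overlapped.

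Genes with the most similar course over the 16 arrays were found by the root mean square difference between profiles, each centred on its own mean. Marco was closest to the chemokine gene Ccl7 (0.25) and the growth factor genes Csf3 (0.28) and Csf2 (0.30), while its own profile varied by 2.56 around its mean. Ccl7 averaged 10.44 in LPS+DHA5HT, 11.15 in LPS, 5.72 in DHA5HT and 5.81 in control arrays. Clec4e was closest to Lcp2, which encodes a signalling adaptor of blood cells (0.06), Usb1 (0.06) and Spryd7 (0.07), against 0.36 for its own profile. Treml4 was closest to Gclm, a subunit of the enzyme that starts glutathione synthesis (0.20), the oxidase gene Aox1 (0.25) and Slc22a18 (0.26), against 0.60 for its own profile. Gclm averaged 11.02 in LPS+DHA5HT, 10.21 in LPS, 9.91 in DHA5HT and 9.60 in control arrays.

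Related receptors were followed as lists. With LPS, 4 of 12 other TREM and CD300 receptor genes rose and 3 fell, with a median change of −0.20. These are 58.3% of the list, where 28.4% of all genes passed, 12.6% upward and 15.8% downward. With only genes brighter than the median gene tested, the share was 55.9%. Trem1, which amplifies inflammatory signals, rose by 1.94 (SE 0.19, adjusted p = 4.19e-07), its neighbour in the family Trem3 by 1.76 and Cd300e by 1.62, whereas the inhibitory receptor gene Cd300a (−1.34) and Cd300lg (−2.25) fell. Trem1 and Trem3 thus rose where Trem2 fell. Of 28 other C-type lectin genes 5 rose and 3 fell, with a median of −0.00109, and the share of 28.6% is that of all genes within 1 percentage point. Clec4n, which encodes Dectin-2, rose by 3.29 (SE 0.16, 9.80-fold, adjusted p = 5.52e-11), while its relative Clec7a fell. Ly75 (0.94) and Clec4a1 (0.93) rose, and the inhibitory receptor gene Clec12a (−0.66) and Mgl2 (−0.52), a galactose-binding lectin, fell. Mgl2 no longer passed when LPS array 2, LPS array 4, control array 1 or control array 3 was left out (adjusted p up to 0.0602).

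Of 19 other scavenger receptor genes 3 rose and 4 fell with LPS, with a median of −0.00750, which is 36.8% of the list against 28.4% of all genes. Mertk, a receptor for dying cells, rose by 1.42. The lipoprotein receptor gene Lrp1 (−1.26), Colec12 (−0.89), the lysosomal receptor gene Scarb2 (−0.82) and the HDL receptor gene Scarb1 (−0.32) fell. Of 18 adaptors and signalling genes of these receptors 6 rose and 4 fell, with a median of 0.11. This is 55.6% of the list, against 55.9% with only genes brighter than the median gene tested. Malt1 rose by 1.54, Syk by 1.53, Ticam2 by 1.35, Ly96 by 0.47 and Card9 by 0.36. The Ly96 call was lost without LPS array 2 or control array 4 (adjusted p up to 0.0591). The partner chains of 3 members were named after their values were seen. Tyrobp, the chain of Trem2, fell (−0.22, adjusted p = 0.0110), also in each omission of an array (adjusted p up to 0.0389). Tlr4, to which CD14 hands LPS, fell (−0.33, adjusted p = 0.0253), which was lost in the omission of LPS array 1, LPS array 3 or control array 4 (adjusted p up to 0.0849) and after centring (adjusted p = 0.0596). Fcer1g, the chain of Clec4e, rose (0.17, adjusted p = 0.0444), which held in 1 of 8 omissions, that of control array 4.

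In LPS+DHA5HT against LPS 3 of the 77 related genes passed, or 3.9% where 1.79% of all genes did. With only genes brighter than the median gene tested, the share was 5.92%. Among TREM and CD300 receptors 0 of 12 rose and 1 fell, Cd300e, which averaged 4.86 ± 0.54 in LPS+DHA5HT arrays and 5.98 ± 0.20 in LPS arrays (−1.12, SE 0.21, adjusted p = 0.0106). Its adjusted p stayed between 0.00851 and 0.0336 when arrays of the compared groups were left out in turn, and the call was lost with the compared arrays alone. Of these 12 genes 7 had an unadjusted p under 0.05, and in 4 the highest array with both agents was under the lowest LPS array, as in 3.91% of all genes. Those were Cd300e and, not passing after adjustment, Cd300lf (−0.58, adjusted p = 0.0528), Trem3 (−0.48, adjusted p = 0.0741) and Trem1 (−0.66, adjusted p = 0.100), of which Cd300lf was named after its values were seen. Of 28 C-type lectin genes 1 rose, Clec5a (0.28, adjusted p = 0.0311), which still passed when LPS+DHA5HT array 4 was left out and did not in the other 7 omissions (0.26 to 0.31 over all 8). Of 18 adaptors 1 fell, Malt1 (−0.50, adjusted p = 0.0297), which did not pass in 5 of 8 omissions, those of LPS arrays 2, 3 and 4 and of LPS+DHA5HT arrays 1 and 4 (adjusted p up to 0.0926). With the compared arrays alone, neither Clec5a (adjusted p = 0.0880) nor Malt1 (adjusted p = 0.152) passed. In the list of 19 other scavenger receptors limma called 0, with changes from −0.06 to 0.20, and 1 of them had an unadjusted p under 0.05. In DHA5HT against control limma called 0 of the 77 genes of these lists, of which 10 had an unadjusted p under 0.05.

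**Figure D4:**
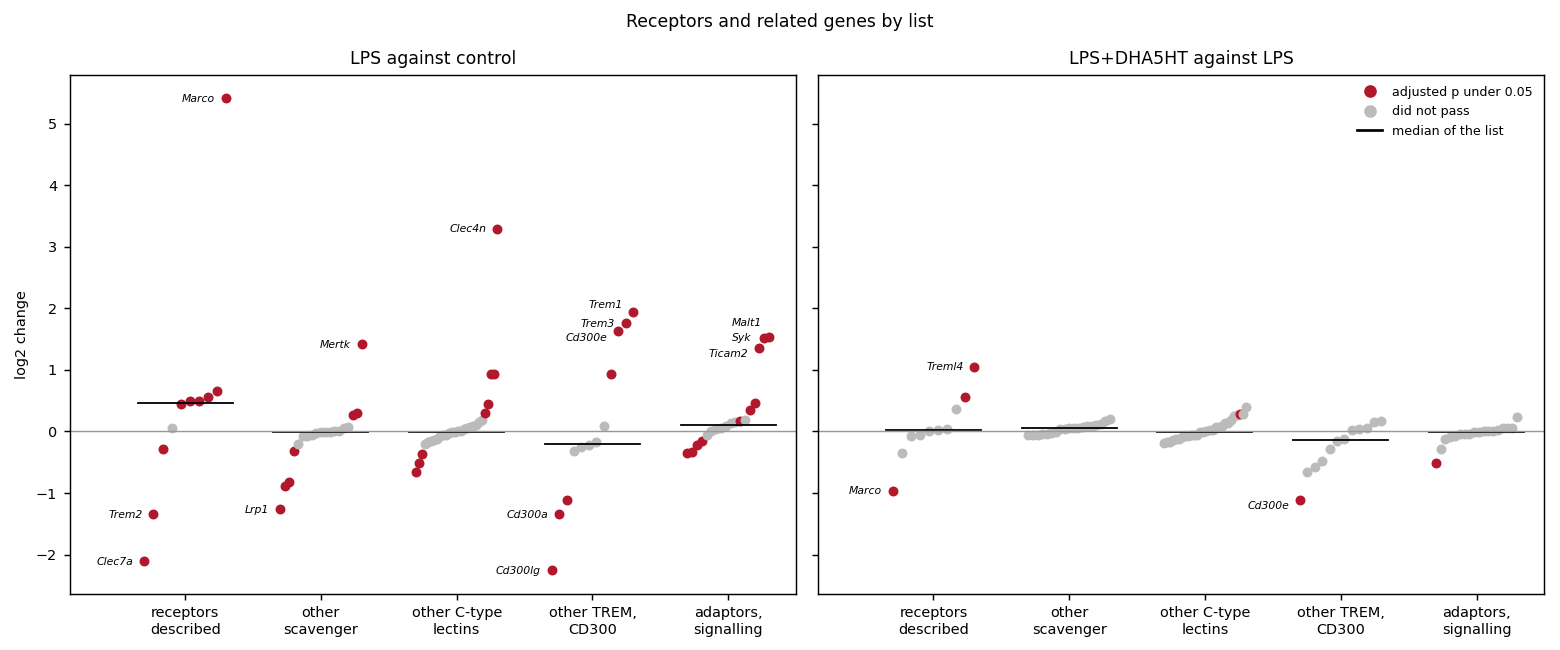
Log2 change of each gene of the receptors described and of the 4 related lists, with LPS against control on the left and LPS+DHA5HT against LPS on the right, red where adjusted p was under 0.05 and with the median of each list as a line. With LPS the red points run from Cd300lg (−2.25) to Marco (5.42), and with DHA5HT in LPS cells from Cd300e (−1.12) to Treml4 (1.05).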

How the data were processed

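Total RNA of 16 RAW264.7 samples (100 ng each, per the labels' protocols) was hybridised to Affymetrix whole-transcript arrays. The authors deposited log2 values made with RMA, per the submitters' processing notes, whose version is not given in the sources used here. RMA corrects background, normalizes between arrays and gives 1 value per probe set. Of 35556 probe sets 21218 named 1 gene, 1881 several and 12457 none in GEO's platform annotation, and only those naming 1 gene were used. Where a gene had several, the one with the highest mean over the 16 arrays was kept, which left 18820 genes, of which 18790 matched a RefSeq symbol.

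The 4 groups were fitted together with limma 3.58.1 (lmFit and eBayes) in R 4.3.3, on the deposited values and with no filter, and p-values were adjusted by Benjamini-Hochberg over all 18820 genes. Intervals are 95% confidence intervals of that fit. The alternatives were the replicate block, an intensity trend, only genes brighter than the median gene, repeated quantile normalization, centring of each array on its median, array weights, the compared arrays alone, all probe sets, and leaving out each array in turn. Members and lists were chosen with earlier results of these data known. Beyond the members, the text names up to 5 genes of each related list that passed, those with the largest absolute log2 change in LPS against control or in LPS+DHA5HT against LPS, and for Marco, Clec4e and Treml4 the 3 genes with the closest profiles.

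Array numbers come from the titles. Over the 24 pairs of same-numbered arrays, deviations from the group means correlated at 0.0699 to 0.232. Every pair was over 0.1 in LPS+DHA5HT against LPS and in DHA5HT against control, so the numbers were taken to pair those groups. Not every pair was in the other comparisons. Arrays of different numbers correlated at −0.203 to 0.165. LPS+DHA5HT array 4 correlated at 0.127 with LPS array 2 and at 0.116 with LPS array 4, so the pairing is not certain. The main fit holds no term for the number, and the replicate block adds it. On simulated data with 18820 genes the fit of LPS+DHA5HT against LPS recovered 68% of changes of 0.5 and 99% of changes of 1 (log2), with 5.11% of its calls false. Figures were drawn with matplotlib 3.10.9. Protein sequences and the promoters of Msr1 and Cd14 were not used here.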

Additional observations from a re-analysis of the deposited data

Results flagged for a closer look

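Within groups of 4 arrays, 3 values of the receptor genes stood apart from the other 3 of their group by Dixon's criterion, among 40 groups checked, and chance gives about 1 in 20. Mrc1 was 3.26 on LPS array 1 and 3.06 to 3.09 on the other LPS arrays, all below the level of absent markers. Clec4e was 11.81 on DHA5HT array 2 and 11.67 to 11.69 on the other DHA5HT arrays. Cd14 was 11.25 on control array 1 and 11.48 to 11.50 on the other control arrays. The DHA5HT effect on Mrc1 differed between cells with LPS and cells without it by −0.72 (limma interaction, adjusted p = 0.0349), with arrays of both LPS groups below the level of absent markers.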

How the results depend on the processing

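The number of the 10 receptor genes called in LPS+DHA5HT against LPS was 3, and 1 with the compared arrays alone, which leaves fewer degrees of freedom. In DHA5HT against control it was 1 and in the interaction 1, and both were 0 among genes brighter than the median gene, a filter that removes Mrc1. Leaving out each array in turn gave 7 to 9 calls for LPS against control, 2 to 3 for LPS+DHA5HT against LPS, 8 for LPS+DHA5HT against DHA5HT, 1 for DHA5HT against control and 0 to 1 for the interaction. The replicate block changed no call of a receptor gene, with 3 calls in LPS+DHA5HT against LPS.

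Directions turned only in small changes that did not pass: Mrc1 in LPS+DHA5HT against LPS (−0.00689 after centring, and −0.0548 to 0.0531 over the arrays left out) and Msr1 in LPS+DHA5HT against DHA5HT (−0.00532 after repeated quantile normalization). Over the arrays left out, Clec4d ran from −0.00400 to 0.0594 in LPS+DHA5HT against LPS and from −0.0159 to 0.103 in DHA5HT against control, where Cd36 ran from −0.0503 to 0.0841 and Cd14 from −0.0834 to 0.000256. The interaction ran from −0.0473 to 0.0144 for Msr1, from −0.0712 to 0.0478 for Clec4d and from −0.0792 to 0.00442 for Cd14.

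Over all genes, LPS+DHA5HT against LPS had 337 calls, 647 with the replicate block, 557 among the brighter genes, 86 with the compared arrays alone and, over the arrays left out, 143 (without LPS array 2) to 289. DHA5HT against control had 113 calls and 179 with the block, and the interaction 62, 96 with the block and 34 to 62 over the arrays left out. Centring turned the split of LPS against control to 3043 higher and 2468 lower, against 2376 and 2970 as deposited, and that of LPS+DHA5HT against LPS to 110 and 216, against 154 and 183. The cause of these changes was not tested. Dim signal limits Mrc1 and Cd36, whose values lie near or below the level of absent markers.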
